A study of Mus musculus with 5 samples.

Results

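The heat shock chaperones examined here were 10 genes: Hspa1a, Hspa1b, Hspb1, Hsph1, Dnajb1, Hsp90aa1, Hspa8, Hsp90ab1, Hspd1 and Hsf1. They were chosen by symbol, through the transcript accession of each array probe, and all 10 were found, on 17 probes, among 17583 genes tested. They were split for this description into 6 inducible genes (Hspa1a, Hspa1b, Hspb1, Hsph1, Dnajb1, Hsp90aa1), 3 constitutive genes (Hspa8, Hsp90ab1, Hspd1) and the regulator Hsf1. All 17 probes were well above background on all 5 arrays, so no member depended on a filter.

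RNA of mouse gastric organoids, clusters of stomach epithelial cells grown in culture, was hybridised to 1 one-colour Agilent array for each of 5 samples. The 4 tumour-derived samples came from tumours under the skin of host mice: 2 had Trp53 loss together with a short hairpin against Cdh1 (hairpins 1 and 2 of group shCdh1), 1 had Trp53 loss with the lesion labelled Apc580D (Apc), and 1 had Trp53 loss with the mutation labelled Pik3caH1047R (Pik3ca). The control was 1 organoid line from Trp53flox/flox mice carrying the pLKO.1 vector with a luciferase hairpin (shLuc), taken before inoculation. All samples are labelled as untreated, female and from stomach, with 1 culture medium. The labels give neither age nor strain, and do not say whether the tumours grew from the control line, whether each line is 1 clone, or how many animals were used. Every difference from the control therefore combines Trp53 loss, the second lesion, passage through a tumour, and any difference of line or animal, which cannot be told apart. P-values measure only the spread between these samples, which may be technical. Where all tumour-derived samples are set against the control together, this spread and the standard errors also hold differences between genotypes and array slides.

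Levels are log2 processed signal minus the array's own 75th percentile, so that 0 is that percentile. The control and both shCdh1 arrays shared slide 1, and Apc and Pik3ca shared slide 2. The spots well above background made up 61.8% to 65.3% of each array. Trp53 stood at -5.06, -5.09, -5.86 and -4.86 on the hairpin 1, hairpin 2, Apc and Pik3ca arrays, against 0.85 in the control, and Cdh1 at 0.07, 0.26, 4.48 and 4.58, against 4.39, so both targeted genes followed the labels. The Pik3ca array went against its label of female: Xist was not well above background there, while Kdm5d, Uty, Eif2s3y and Ddx3y of the Y chromosome were, as on no other array, so values without this array are given for the main results. Of 11 gastric epithelial markers, 10 or 11 were well above background on every array, with a summed signal of 787, 550, 613 and 775 times the 75th percentile, against 853 in the control. In the mean of the tumour-derived arrays 0 of these 11 passed. Of them 10 were lower and 1 higher, against 44.6% and 55.4% of all genes. The lower ones included the hairpin target Cdh1, and Krt18 (-0.07) and Krt19 (-7e-04), both near 0. The 1 higher was Epcam (0.94), above the control on all 4 arrays, as were 30.2% of all genes. The gastric genes Tff1 (-1.51), Tff2 (-1.32) and Cldn18 (-1.20) were below the control on all 4 arrays, as were 24.4% of all genes. Of leukocyte markers 4 or 5 of 8 were well above background on each array (summed signal 20.7, 32.1, 25.2 and 23, against 16.7 in the control), with Adgre1, Cd79a and Lyz2 on none, and of endothelial markers 3 or 4 of 6 (0.223, 0.167, 0.143 and 0.176, against 0.293), where 4 of 6 were higher and 2 lower. Emcn, which passed lower, was well above background in the control alone, while Kdr was so on 3 tumour-derived arrays and not in the control. The part of such cells in the chaperone values was not tested.

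The heat shock response is the cell's transcriptional answer to unfolded protein. Hsf1, a transcription factor, is held inactive by chaperones, is released when they are occupied by damaged protein, forms trimers and binds heat shock elements, inverted repeats of the letters GAA, in front of chaperone genes. Its products belong to families: the HSP70 proteins Hspa1a, Hspa1b and Hspa8 bind exposed hydrophobic stretches in cycles of ATP hydrolysis, the J-domain protein Dnajb1 delivers clients and starts that hydrolysis, the HSP110 protein Hsph1 exchanges the nucleotide, the HSP90 proteins Hsp90aa1 and Hsp90ab1 finish the folding of kinases and receptors, the small heat shock protein Hspb1 holds unfolding protein without ATP, and the chaperonin Hspd1 folds protein inside mitochondria. In epithelia the constitutive genes are expressed at rest, and the inducible HSP70 genes are known for their strong response to heat and toxic agents.

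The promoters of 5 members are shown because Hspa1a and Hspa1b, the pair of inducible HSP70 genes, have nearly the same one, and because the others differ in heat shock element letters. The RefSeq promoter table (GRCm38.p6) matched 6 of the 10 members. Each line gives the 250 bases before a transcription start, 5′ to 3′ on the gene's own strand, with capitals marking the pair motifs GAANNTTC and TTCNNGAA. Each motif is its own reverse complement, so both strands are read at once, and overlapping matches of both were allowed.
Hspa1a: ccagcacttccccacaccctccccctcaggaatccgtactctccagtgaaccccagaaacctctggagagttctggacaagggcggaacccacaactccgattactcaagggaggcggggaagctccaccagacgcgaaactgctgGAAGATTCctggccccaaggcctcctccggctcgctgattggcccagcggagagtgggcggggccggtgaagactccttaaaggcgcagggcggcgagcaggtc
Hspa1b: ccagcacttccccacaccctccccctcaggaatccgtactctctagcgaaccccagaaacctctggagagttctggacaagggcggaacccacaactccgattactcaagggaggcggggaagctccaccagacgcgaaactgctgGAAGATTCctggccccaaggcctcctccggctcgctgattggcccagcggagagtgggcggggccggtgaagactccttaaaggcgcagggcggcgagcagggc
Hspb1: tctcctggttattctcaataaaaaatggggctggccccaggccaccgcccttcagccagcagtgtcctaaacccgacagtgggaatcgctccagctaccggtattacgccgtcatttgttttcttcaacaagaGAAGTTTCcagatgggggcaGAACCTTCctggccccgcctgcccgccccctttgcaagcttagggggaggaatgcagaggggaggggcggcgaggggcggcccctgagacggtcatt
Hspd1: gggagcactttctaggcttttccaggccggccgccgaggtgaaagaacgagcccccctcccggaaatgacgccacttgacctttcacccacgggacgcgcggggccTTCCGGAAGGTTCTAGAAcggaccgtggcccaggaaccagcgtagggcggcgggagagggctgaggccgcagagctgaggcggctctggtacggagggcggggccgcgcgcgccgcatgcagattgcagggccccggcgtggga
Dnajb1: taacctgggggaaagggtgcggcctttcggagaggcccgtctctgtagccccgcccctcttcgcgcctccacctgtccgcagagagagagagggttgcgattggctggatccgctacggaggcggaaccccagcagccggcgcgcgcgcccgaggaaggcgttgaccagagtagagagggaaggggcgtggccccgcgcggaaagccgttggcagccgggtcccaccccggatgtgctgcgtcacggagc

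The windows lie at chr17:34972157-34972406 (minus strand) for Hspa1a, chr17:34959239-34959488 (minus) for Hspa1b, chr5:135887669-135887918 (plus) for Hspb1, chr1:55087933-55088182 (minus) for the second of the 2 listed starts of Hspd1, and chr8:83607925-83608174 (plus) for the first of the 2 listed starts of Dnajb1. Hspa1a and Hspa1b, which neighbour each other in the annotation, were identical at 247 of 250 positions, with the 3 substitutions C44T, T47C and T249G from Hspa1a to Hspa1b, counted from 1 at the 5′ end of the window. Both held 1 GAANNTTC, from 104 to 97 bases before the start. Hspb1 held 2 of them, at 117 to 110 and 97 to 90 bases. The Hspd1 window held 3 pair motifs, each sharing its last 3 letters with the next, which makes 2 matches of a triple motif (a GAANNTTC and a TTCNNGAA that share 3 letters, in either order), while the window before its other listed start held 0. Both Hsph1 windows, which overlap, held the same 1 TTCNNGAA, and both Dnajb1 windows held 0 of either motif. The second Dnajb1 window lies downstream of the first listed start, within the gene, so it is not a second view of the same promoter. The Hspd1 window shown likewise lies downstream of the other listed start of that gene. Over 32851 mouse promoter windows of the same length, 12.8% held a pair motif and 0.466% a triple one. These are letter matches in short windows and say nothing of whether Hsf1 was bound.

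The first comparison asked how the chaperones of the 4 tumour-derived samples stood against the control. The inducible genes Hspa1a, Hspa1b and Hspb1 were higher by 7.26-fold, 5.14-fold and 10-fold on average, the 3 constitutive genes and Hsp90aa1 were near the control, and Dnajb1 was lower by 1.47-fold. By limma with Benjamini-Hochberg adjustment over all genes, 0 of the 10 members passed, against 0.119% of all genes tested (0.0227% higher and 0.0967% lower). An unadjusted p below 0.05 was reached by 3 members (Hspa1a, Hspa1b, Hspb1), against 13.3% of all genes. All 4 tumour-derived arrays were at least 2-fold above the control for the same 3 members, against 3.16% of all genes and 1.74% of those well above background on every array, and 0 members were at least 2-fold below it on all 4, against 2.77%. The mean difference was at least 2-fold higher for these 3 members, against 9.88% of all genes, and at least 2-fold lower for 0, against 6.98%. The members were proposed with earlier results of these data known, so this count is a description. In bulk samples a change in the share of cells that express a gene and a change in RNA per cell cannot be told apart.

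**Figure D1:**
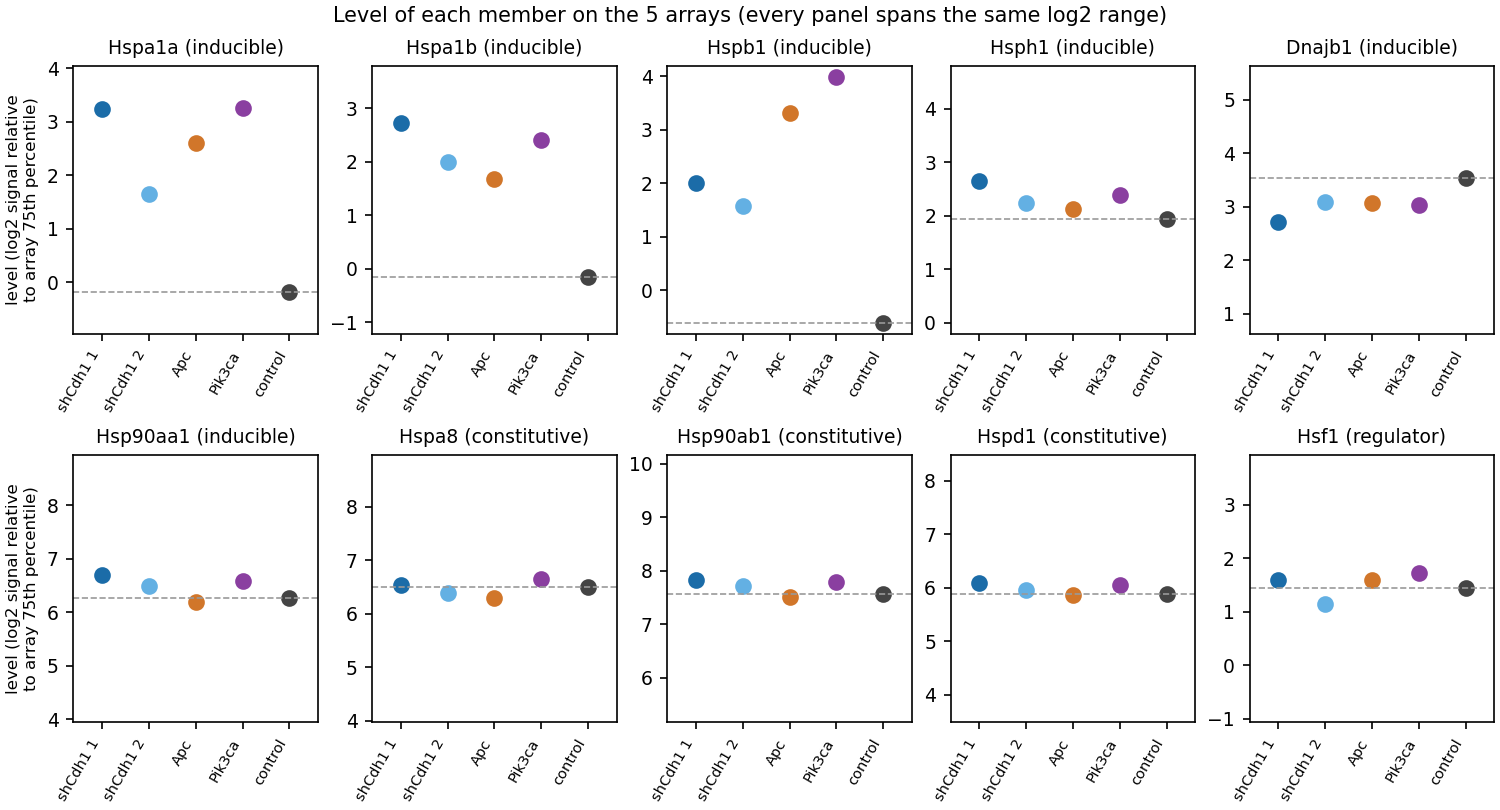
Level of each member (log2 signal relative to the array's 75th percentile, vertical axis) on the 4 tumour-derived arrays and the control; each point is 1 array, the dashed line is the control, and every panel spans the same log2 range. Hspa1a, Hspa1b and Hspb1 lie above the control line on all 4 tumour-derived arrays, Dnajb1 lies below it on all 4, and Hspa8, Hsp90ab1, Hspd1 and Hsf1 stay near it.

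Hspa1a, a stress-inducible cytosolic HSP70, stood at 3.23 and 1.65 with hairpins 1 and 2, at 2.60 in Apc and at 3.25 in Pik3ca, against -0.18 in the control. Every tumour-derived array was above the control, as for 30.2% of all genes. Hairpin 1 and Pik3ca were nearly equal, and hairpin 2 was lowest among the tumours. The differences were 10.6-fold, 3.54-fold, 6.86-fold and 10.8-fold in that order. Their mean was 2.86 ± 0.69 (log2, standard error, limma, n = 4 against 1; unadjusted p = 0.00894, adjusted p = 0.26), larger than the range of 1.61 over the tumour-derived arrays. The hairpin pair, which shares a genotype, differed by 1.59, so that the order of genotypes is not resolved for this gene. Within slide 1 the difference, which is that of the shCdh1 pair from the control, was 2.62 (limma adjusted p = 0.458). This p is from a fit with slide as a block, which also takes in the spread between Apc and Pik3ca on slide 2. The same holds for the slide 1 values of Hspa1b and Hspb1 below. Without Pik3ca the Hspa1a difference was 2.67 (limma adjusted p = 0.402).

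Hspa1b, whose product is almost the same HSP70 protein, stood at 2.74 and 2.00 with hairpins 1 and 2, 1.67 in Apc and 2.42 in Pik3ca, against -0.16 in the control. Again all tumour-derived arrays were above the 1 control array, as for 30.2% of all genes, but here Apc, not hairpin 2, was lowest among the tumours. The differences were 7.43-fold, 4.44-fold, 3.56-fold and 5.97-fold, with a mean of 2.36 ± 0.45 (unadjusted p = 0.00347, limma adjusted p = 0.222), against a range of 1.06 over the tumours. Within slide 1 it was 2.52 (adjusted p = 0.414) and without Pik3ca 2.29 (adjusted p = 0.369). The transcripts of Hspa1a and Hspa1b are closely related, each was read by 1 probe, and how far either probe also reads the other gene was not tested, so they are not independent measurements of inducible HSP70.

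Hspb1, the small heat shock protein that also binds actin and intermediate filaments, had the largest mean difference of the members. It stood at 2.00 and 1.58 with hairpins 1 and 2, at 3.31 in Apc and at 3.98 in Pik3ca, against -0.60 in the control. All tumour-derived arrays were above the control, as for 30.2% of all genes, and both shCdh1 arrays were below Apc and Pik3ca, as for 13.1%. The differences were 6.07-fold, 4.54-fold, 15.1-fold and 24-fold, with a mean of 3.32 ± 1.00 (unadjusted p = 0.021, limma adjusted p = 0.303) against a range of 2.40 over the tumours. Within slide 1 the difference was 2.39 (adjusted p = 0.375), and without Pik3ca 2.90 (adjusted p = 0.407). Among all genes tested, 98.7% had a smaller absolute difference than Hspb1, 98.1% a smaller one than Hspa1a and 96.9% a smaller one than Hspa1b.

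Dnajb1, the HSP40 that serves inducible HSP70 and is itself a classical Hsf1 target, lay on the other side of the control from its HSP70 partners. It stood at 2.72 and 3.08 with hairpins 1 and 2, 3.08 in Apc and 3.04 in Pik3ca, against 3.54 in the control. All 4 tumour-derived arrays were below the control, as were 24.4% of all genes, with 3 of them at nearly the same level and hairpin 1 lower. The mean difference was -0.56 ± 0.25 (unadjusted p = 0.074, limma adjusted p = 0.419), or -0.58 (adjusted p = 0.557) without Pik3ca. Dnajb1 was negative under all 13 alternatives, between -0.70 and -0.47, although some of these could not change the value of a gene with 1 bright probe. With all 4 arrays below the control, leaving out 1 of them or taking slide as a block could not reverse it either.

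Hsph1, the HSP110 exchange factor, stood at 2.64 and 2.23 with hairpins 1 and 2, 2.12 in Apc and 2.40 in Pik3ca, against 1.95 in the control. All 4 were above the control, as were 30.2% of all genes, by 1.62-fold, 1.22-fold, 1.13-fold and 1.37-fold, and the mean difference of 0.40 ± 0.28 (limma adjusted p = 0.582) was below the range of 0.53 over the tumours. A second probe gave differences between 0.03 and 0.51, and the dim probe for another transcript gave -0.13 to 0.88, so the 3 probes did not all keep the same side of the control. Hsp90aa1, the stress-inducible HSP90, stood at 6.69 and 6.48 with hairpins 1 and 2, 6.18 in Apc and 6.58 in Pik3ca, against 6.27 in the control. Apc lay below the control and the others above it. The mean difference was 0.21 ± 0.27 (adjusted p = 0.774), and its second probe gave -0.11 to 0.40. Of the 6 inducible genes, 3 were thus at least 2-fold above the control on all 4 arrays, while Hsph1, Hsp90aa1 and Dnajb1 were not.

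**Figure D2:**
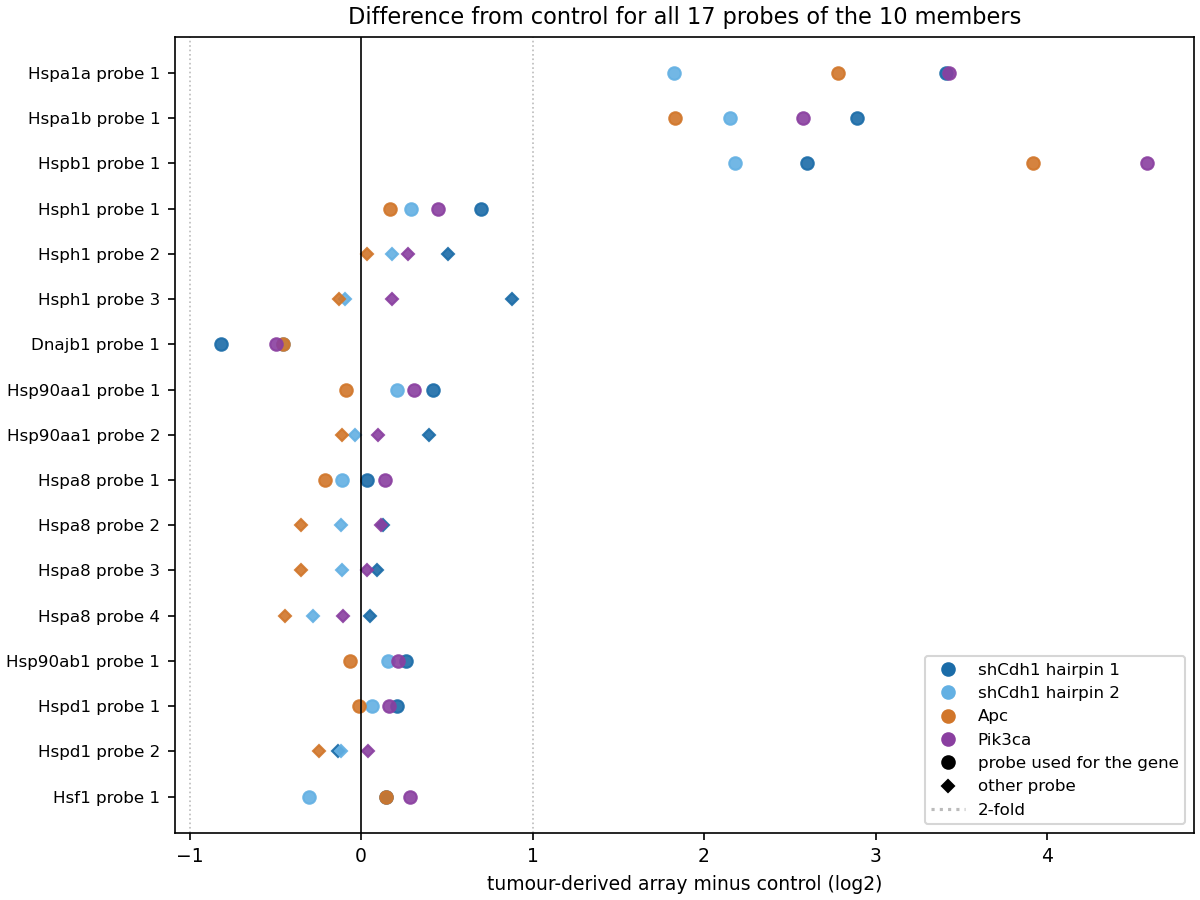
Difference of each tumour-derived array from the control (log2, horizontal axis) for all 17 probes of the 10 members; colours mark the array, circles the probe used for the gene, diamonds the other probes, and dotted lines 2-fold. The 3 probes of Hspa1a, Hspa1b and Hspb1 lie beyond 2-fold on every array, and no other probe reaches 2-fold on any array.

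The constitutive members stayed close to the control. Hspa8, the housekeeping HSP70 that also uncoats clathrin vesicles, stood at 6.54 and 6.40 with hairpins 1 and 2, 6.30 in Apc and 6.64 in Pik3ca, against 6.51 in the control. The control lay among the tumours, and the mean difference was -0.04 ± 0.23 (adjusted p = 0.963). Its 3 other probes gave differences from -0.44 to 0.13, with Apc the lowest on all 4 probes. Hsp90ab1, the constitutive cytosolic HSP90, stood at 7.82, 7.72, 7.50 and 7.78 on the hairpin 1, hairpin 2, Apc and Pik3ca arrays, against 7.56 in the control, a mean difference of 0.14 ± 0.23 (adjusted p = 0.825).

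Hspd1, the mitochondrial HSP60, stood at 6.09 and 5.95 with hairpins 1 and 2, 5.87 in Apc and 6.05 in Pik3ca, against 5.88 in the control, a mean difference of 0.11 ± 0.21 (adjusted p = 0.86). Its second probe gave -0.25 to 0.04. Hsf1 itself stood at 1.59 and 1.14 with hairpins 1 and 2, 1.58 in Apc and 1.72 in Pik3ca, against 1.44 in the control, with a mean of 0.07 ± 0.30 (adjusted p = 0.944). Hairpin 2 lay below the control and the 3 others above it. With arrays scaled to their median, the mean differences of Hsp90ab1, Hspd1 and Hsf1 changed sign, so no direction is given for them. A transcript level does not report the activity of Hsf1, which is controlled on the protein. All 4 tumour-derived arrays were within 1.5-fold of the control for 5 members (Hspa8, Hsp90aa1, Hsp90ab1, Hspd1, Hsf1), as for 39.5% of all genes and 46.9% of those well above background on every array. With 1 control array these values do not show that the levels were equal.

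The inducible and constitutive classes were compared within each array, where scaling of the array cancels. The mean difference from control over the 6 inducible genes was 1.53 in hairpin 1, 1.03 in hairpin 2, 1.36 in Apc and 1.81 in Pik3ca. Over the 3 constitutive genes it was 0.17, 0.04, -0.10 and 0.17. The inducible mean exceeded the constitutive one by 1.37, 1.00, 1.45 and 1.64, on average by 1.36 ± 0.27 (log2, SD over 4 tumour-derived arrays that share the 1 control), or by 1.27 without Pik3ca. It is given with no test, because the members were proposed with results known. Without Hspa1a, Hspa1b and Hspb1, an alternative chosen after seeing the data, the excess was -0.05. Because these 3 were left out for their large differences, the excess had to be smaller, and the value describes only how the other 3 inducible genes stood. No stress was applied in these samples, so inducibility itself was not measured. The class given to Hspd1 is open to question. Its partner Hspe1 is listed below among genes induced through Hsf1, and 1 promoter window of Hspd1 held the triple motif.

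**Figure D3:**
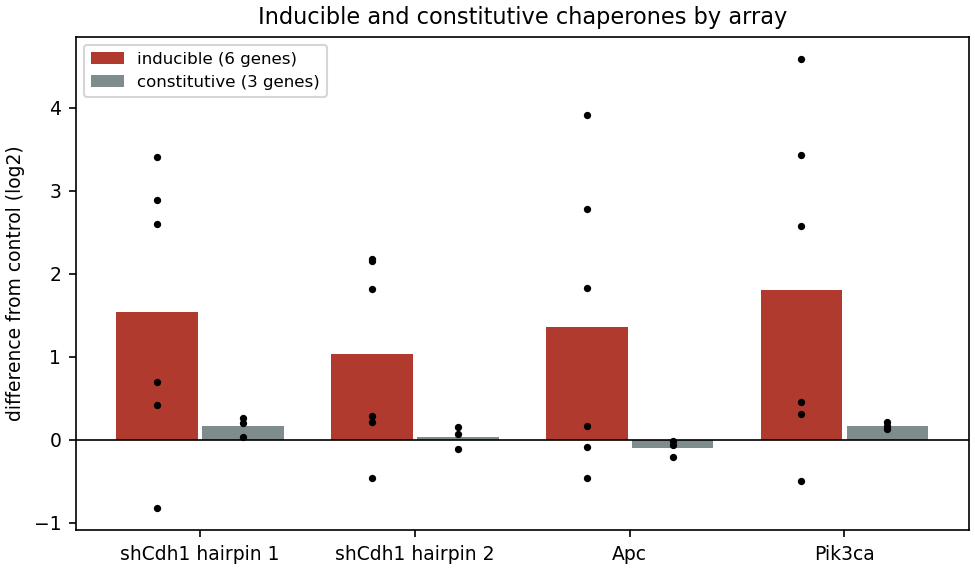
Mean difference from the control (log2, vertical axis) of the 6 inducible and the 3 constitutive chaperones in each tumour-derived sample; bars are means over genes and black points are single genes, of the same 1 control array. In each sample 3 inducible genes lie at or above 1.82 and the other 3 at or below 0.70, while constitutive genes lie between -0.21 and 0.26.

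Each tumour genotype was then set against the control in a fit with 1 mean per group, where the only replicate spread is that of the hairpin pair. By limma, 0 genes passed in shCdh1, Apc or Pik3ca against the control (0% of 17583 in each), and an unadjusted p below 0.05 was reached by 9.74%, 9.02% and 11.5% of genes. Hspb1 was 5.25-fold higher in shCdh1 (2.39 ± 0.34, unadjusted p = 0.00618, adjusted p = 0.457), 15.1-fold in Apc (3.92 ± 0.39, unadjusted p = 0.00227, adjusted p = 0.263) and 24-fold in Pik3ca (4.59 ± 0.39, unadjusted p = 0.00144, adjusted p = 0.298). The shCdh1 difference is the one given within slide 1 above, here set against another spread. Hspa1a was 6.13-fold, 6.86-fold and 10.8-fold higher in shCdh1, Apc and Pik3ca. Hspa1b was 5.75-fold, 3.56-fold and 5.97-fold higher in that order. The comparisons share the 1 control array. In each of the 4 tumour-derived samples the same 3 members were at least 2-fold higher and 0 were at least 2-fold lower, where 8.69%, 11%, 11.3% and 12.1% of all genes were at least 2-fold higher on the hairpin 1, hairpin 2, Apc and Pik3ca arrays, and 8.64%, 8.34%, 6.49% and 10% at least 2-fold lower.

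The shCdh1 tumours were compared with the Apc and Pik3ca tumours to ask whether chaperone levels differed between tumours with low and with high Cdh1. By limma 0 of 17583 genes passed (0%), and 6.03% had an unadjusted p below 0.05. Hspb1 was 3.63-fold lower in shCdh1 (-1.86 ± 0.28, unadjusted p = 0.00711, adjusted p = 0.523), and was the 1 member in which both shCdh1 arrays lay below both others, as in 13.1% of all genes, while 0 members had both shCdh1 arrays above both others, against 20.2%. Hspa1a differed by -0.49 ± 0.69 (adjusted p = 0.985), Hspa1b by 0.32 ± 0.37 and Dnajb1 by -0.16 ± 0.26, each less than its spread. This contrast follows the slides, so genotype and slide cannot be told apart in it.

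Other genes of the pathway were read from lists drawn up for this description. Of 15 other genes known to be induced through Hsf1, 0 passed in limma and 1 had an unadjusted p below 0.05, against 13.3% of all genes. In this list 10 were higher and 5 lower, against 55.4% higher and 44.6% lower of all genes, and the median difference was 0.21, against 0.06 for all genes tested. With arrays scaled to their median, 8 of the 15 were higher. Among those well above background on all arrays were Hspa4l, an HSP110 relative (0.83 ± 0.29, adjusted p = 0.346), the Siah1-interacting protein Cacybp (0.54 ± 0.22) and Stip1, which links HSP70 to HSP90 (0.53 ± 0.38). The co-chaperone Bag3, a gene strongly induced by heat, stood at 3.17 and 3.06 with hairpins 1 and 2, 3.43 in Apc and 3.79 in Pik3ca, against 3.33 in the control. Dnaja1, another inducible J-domain gene, stood at 4.84, 4.20, 4.77 and 4.78, against 4.56. Hspe1, the partner of Hspd1, stood at 5.73, 5.52, 5.46 and 5.48, against 5.55. In all 3 the control lay among the tumour-derived values.

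Serpinh1, which encodes the collagen chaperone HSP47, and the small heat shock gene Hspb8 belong to the same list, and were picked out after their values were seen. Serpinh1 stood at -5.15 and -4.74 with hairpins 1 and 2, -0.11 in Apc and 0.17 in Pik3ca, against -5.96 in the control, where it was not well above background. Hspb8 stood at -8.08 in both hairpins, -2.01 in Apc and -5.91 in Pik3ca, against -8.33 in the control, and was well above background in Apc alone. Serpinh1, like Hspb1, was higher on both slide 2 arrays than on both shCdh1 arrays. Because collagen-producing cells express Serpinh1, fibroblast markers were read beside it. Col3a1, Lum and Pdgfrb were not tested, as they were well above background on no array, Col1a1 stood at -6.07, -4.60, -4.00 and -4.35 on the hairpin 1, hairpin 2, Apc and Pik3ca arrays, against -5.71 in the control, and Dcn was well above background in Apc alone. Of the 5 tested fibroblast markers 5 were higher in the mean, against 55.4% of all genes, or 3 with quantile normalization. Pdgfra (2.33), well above background on 2 arrays, was above the control on all 4 tumour-derived arrays, as were 30.2% of all genes. The others were not, with Col1a2 at 0.16 and Thy1 at 0.77 in the mean. The summed fibroblast marker signal was 0.081, 0.125, 0.257 and 0.108 times the 75th percentile in the tumour-derived arrays, against 0.0737 in the control. The part of such cells in the Serpinh1, Hspb8 and Hspb1 values was not tested.

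By family, 0 genes passed in any of the chaperone lists, and their counts stand beside the same shares of all genes, 55.4% higher and 44.6% lower. Among 10 other HSP70 and HSP110 genes, 8 were higher and 2 lower with a median of 0.34. Of those well above background on every array, the largest differences were those of Hspa4l, the endoplasmic reticulum chaperone Hspa5 (0.76 ± 0.31), its exchange factor Hyou1 (0.52 ± 0.35) and Hspa4 (0.39 ± 0.25). Among 5 other small heat shock genes the median was 0.18. Hspb6 stood at 0.55 ± 0.25, Hspb9 at 0.03 ± 0.30 and the lens and muscle crystallin Cryab at -0.03 ± 0.81, with Cryab at -1.80 and -1.83 with hairpins 1 and 2, 0.09 in Apc and -1.13 in Pik3ca, against -1.14 in the control. Among 17 J-domain genes 8 were higher and 9 lower, with a median of -0.04, or 3 higher and 14 lower with median scaling. Dnaja4 had the lowest value (-1.77 ± 0.99, adjusted p = 0.508), at -4.09, -2.08, -1.48 and -2.43 on the hairpin 1, hairpin 2, Apc and Pik3ca arrays, against -0.75 in the control, below the control on all 4 arrays like Dnajb1. Dnajb2 stood at -0.43 ± 0.40, Dnajb12 at -0.31 ± 0.26 and Dnajb4 at 0.37 ± 0.28.

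Among 18 co-chaperones of HSP70 and HSP90, 9 were higher and 9 lower with a median of 0.00. The cyclophilin Ppid was highest (0.82 ± 0.25, adjusted p = 0.303), then the HSP70-interacting protein St13 (0.62 ± 0.27), Bag4 (0.57 ± 0.21) and Stip1. Of 8 subunits of the cytosolic chaperonin TRiC, which folds actin and tubulin, 8 were higher, but 6 with median scaling and 7 with quantile normalization, so the count depends on the scaling. The median was 0.18, with Cct6a at 0.47 ± 0.23, Tcp1 at 0.28 ± 0.24, Cct5 at 0.28 ± 0.28 and Cct8 at 0.19 ± 0.22. Of 11 mitochondrial chaperones and proteases 3 were higher and 8 lower, with a median of -0.04, or 1 higher and 10 lower with median scaling. The protease Lonp1 was at 0.40 ± 0.29, the protease Htra2 at -0.35 ± 0.25, the mitochondrial HSP90 Trap1 at -0.18 ± 0.30 and the exchange factor Grpel2 at -0.18 ± 0.28. The relatives and inhibitor of Hsf1 were at -0.39 ± 0.35 for Hsf2, 0.49 ± 0.30 for Hsf4 and -0.18 ± 0.25 for Hsbp1.

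**Figure D4:**
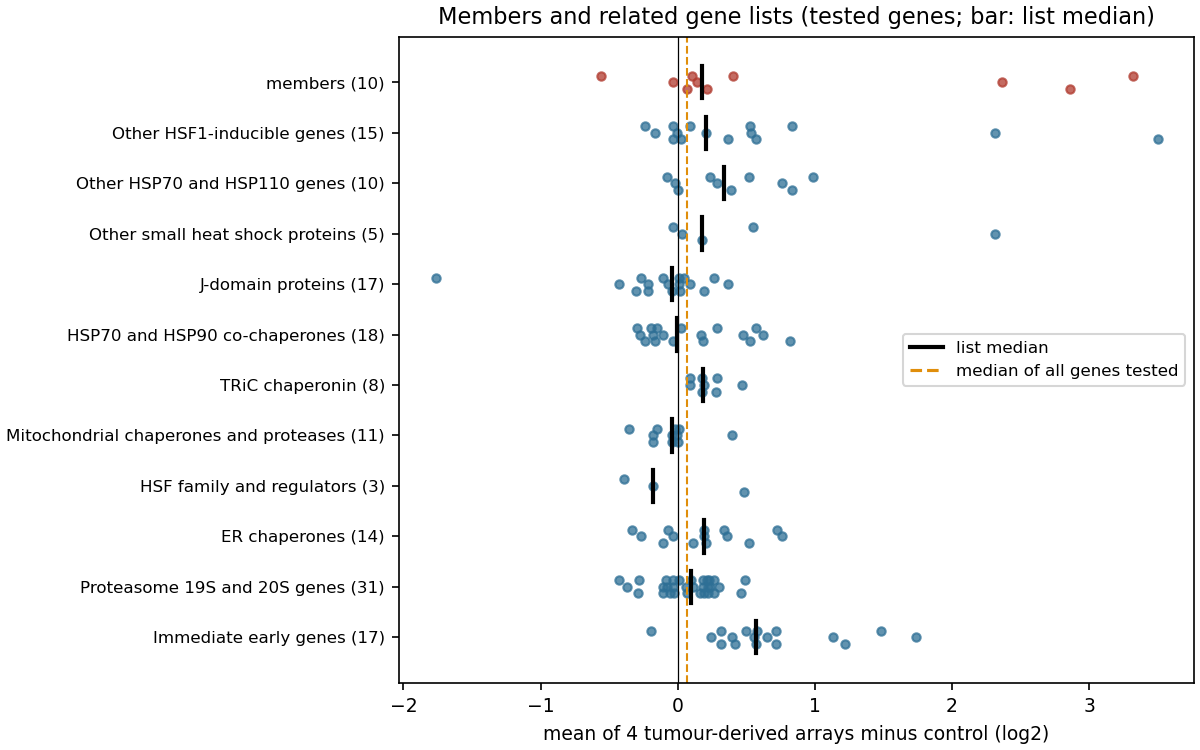
Mean of the 4 tumour-derived arrays minus the control (log2, horizontal axis) for the members and for the related gene lists; each point is 1 tested gene (number in brackets), black bars are list medians and the dashed line is the median of all genes tested, 0.06. Hspa1a, Hspa1b and Hspb1 stand apart from the other 7 members, and list medians run from -0.18 for the Hsf1 relatives to 0.57 for the immediate early genes.

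The genes most like the pair Hspa1a and Hspa1b were found by the root-mean-square distance between their 4 differences from control and the mean of that pair, over 14582 genes well above background on every array. The nearest were Rgs17 (distance 0.30), a regulator of G-protein signalling, Prelid2 (0.41), the sialyltransferase St3gal1 (0.45), the angiogenic factor Vegfa (0.47) and Hmgcll1 (0.47). Rgs17 was at 1.17, 0.25, 0.50 and 1.24 on the hairpin 1, hairpin 2, Apc and Pik3ca arrays, against -1.54 in the control. Vegfa was at 5.76, 5.02, 4.67 and 6.04, against 3.13. All 5 were higher by 4.58-fold to 6.04-fold, and 0 passed in limma (adjusted p between 0.23 and 0.293). These genes were picked for differences close to those of the pair, so a height like that of the pair was fixed by the choice. For 2 of them the size depended on the processing. The mean log2 difference of Vegfa, 2.24, was 1.40 with the mean of all its probes. That of Hmgcll1, 2.19, was 1.02 with normexp and quantile normalization. Hspb1 had a distance of 1.17 from the pair and Hsph1 of 2.23, so the nearest gene by this measure was not another chaperone.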

How the data were processed

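Cy3-labelled RNA of the 5 organoid samples was amplified from a small input, per the labels' protocols, and the submitters' processing notes name Agilent Feature Extraction 11.0.1.1. Per the file headers, the deposited processed signal is an intensity already background-subtracted and spatially detrended, with no normalization between arrays, beside the median intensity of each spot and of its surroundings. The table of values the authors deposited is in log2 units. Set against the differences from the control computed here, over 53335 probes, it gave slope 1 and correlation 1, which settles scale and direction, while each probe's baseline is unknown. Column medians were 0.074, 0.031, -0.08 and 0.022 in hairpin 1, hairpin 2, Apc and Pik3ca and -0.057 in the control.

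Here log2 processed signals were reduced by each array's 75th percentile over 59305 non-control spots. Outlier spots were left out, 0 spots were saturated, and spots of a probe were averaged. Probes were named by transcript accession through RefSeq (GRCm38.p6, names only), and 34549 probes matched 1 symbol. A gene took its probe with the highest mean, and the 17583 genes whose probe was well above background on 1 array or more entered the test with limma 3.58.1 in R 4.3.3 (two-sided, Benjamini-Hochberg, threshold 0.05). The fit of all tumours has 3 residual degrees of freedom and assumes that the lone control varies like the tumours, and the genotype fit has 1. Errors after ± are standard errors unless marked SD. The number of arrays limits the precision. Beside the members, up to 4 genes per list were named, those with the largest differences among genes well above background on every array, with any that passed and the 5 nearest to Hspa1a and Hspa1b. A gene that this rule names is not reported here. Bag3, Dnaja1, Hspe1, Serpinh1, Hspb8, Kdr, Dcn, Epcam, Krt18, Krt19, Pdgfra, Thy1 and the sex-linked genes fall outside that rule and were named after their values were seen. The members and lists were chosen with earlier results of these data known. Alternatives covered background correction, scaling, filters, probe choice, slide and single arrays. Tumour-derived organoids beyond these 4, which the series' design text mentions, were not analysed here.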

Additional observations from a re-analysis of the deposited data

Results flagged for a closer look

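Among the 10 members and the class difference, each read over the 4 tumour-derived arrays, 1 array stood far from the rest in 1 case. The Dnajb1 level in hairpin 1 was 2.72, below 3.08 in hairpin 2, 3.08 in Apc and 3.04 in Pik3ca, and its gap to the nearest array made up 0.893 of the whole range. Chance flags about 1 in 20 such sets of arrays. Without hairpin 1 the mean difference of Dnajb1 from the control was -0.47 (adjusted p = 0.478).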

How the results depend on the processing

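No member passed under any of the 13 alternatives to the fit of all tumours, and Hspa1a (2.62 to 3.21), Hspa1b (2.11 to 2.54), Hspb1 (2.39 to 3.70), Hsph1 (0.26 to 0.49) and Dnajb1 (-0.70 to -0.47) kept their direction in all of them. Much of this was fixed in advance. Hspa1a, Hspa1b, Hspb1 and Dnajb1 had 1 probe each, well above background on all 5 arrays. The filters, the floor and the mean of all probes could therefore not change their differences. Members near 0 changed sign without passing. Hspd1 was at -0.0893 with normexp and quantile normalization, -0.0376 with median scaling and -0.0041 with the mean of all probes. Hsf1 was at -0.077 with median scaling, -0.0789 with slide as a block and between -0.0049 and 0.191 with 1 array left out. Hsp90ab1 was at -0.0019 with median scaling, and Hspa8 between -0.0943 and 0.0209 with 1 array left out. Hspb9 was at -0.0528 with normexp, -0.091 with quantile normalization, -0.11 with median scaling, -1e-04 in the authors' table, and between -0.0453 and 0.145 with 1 array left out. Cryab was between -0.452 and 0.19 with 1 array left out. Median scaling moved the median of all genes to -0.08, against 0.06. The count of all passing genes, 21 in the main setting, was 39 with normexp and quantile normalization, 49 with dim signals at a floor, 7 when a gene had to pass the background test on each of the 5 arrays, 0 with slide as a block (1821 with an unadjusted p below 0.05) and between 0 and 19 with 1 array left out (0 without hairpin 1, hairpin 2 or Pik3ca). The genotype comparisons had 0 under each alternative run, and leaving out a hairpin there leaves no residual degrees of freedom, so it was not tested. The inducible excess, 1.36, was 0.99 without Hspb1, -0.0509 without Hspa1a, Hspa1b and Hspb1, and between 1.27 and 1.49 with 1 array left out. The fewer genes or arrays of these settings are part of their construction, and the cause was otherwise not tested. No paired analysis was possible because only shCdh1 carries replicate numbers in the labels. The 1 control array limits every difference.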

Other observations

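Genes of other protein quality control systems and of the immediate early response were read in the same fit, and 0 of them passed in limma. Among 14 chaperones of the endoplasmic reticulum, where secreted protein is folded, 9 were higher and 5 lower in the tumour-derived samples and 1 had an unadjusted p below 0.05, with a median of 0.19. Of all genes tested 55.4% were higher, 44.6% lower and 13.3% had an unadjusted p below 0.05, with a median of 0.06. Hspa5 stood at 6.97, 6.47, 6.51 and 6.95 on the hairpin 1, hairpin 2, Apc and Pik3ca arrays, against 5.96 in the control, and Hsp90b1, the HSP90 of this compartment, at 6.66, 6.62, 6.46 and 6.74, against 5.90 (0.72 ± 0.22, adjusted p = 0.303). Both were above the control on all 4 arrays, as were 6 of the 14 and 30.2% of all genes. Their cytosolic relatives Hspa8 and Hsp90ab1 were not, although Hsp90ab1 lay below the control only in Apc, by -0.07. Calr, a lectin chaperone, was at 0.36 ± 0.30. Among 31 proteasome subunits 19 were higher and 12 lower, with a median of 0.09 and no member beyond 2-fold, or 14 higher and 17 lower with median scaling, and Psmc6 (0.49 ± 0.27), Psmd8 (0.46 ± 0.21), Psmc4 (-0.42 ± 0.30) and Psmc5 (-0.37 ± 0.27) differed most.

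Of 17 immediate early genes, which respond within minutes to growth factors and to handling, 16 were higher, 13 of them on all 4 arrays, with a median of 0.57 and 4 with an unadjusted p below 0.05, against 55.4%, 30.2%, 0.06 and 13.3% over all genes. With median scaling 16 of the 17 were higher too. Ier3 stood at 4.13, 4.17, 3.42 and 4.31 on the hairpin 1, hairpin 2, Apc and Pik3ca arrays, against 2.27 in the control (1.74 ± 0.40, adjusted p = 0.249), and the phosphatase Dusp1 at 1.28, 1.65, 0.89 and 2.26, against 0.04 (1.48 ± 0.55, adjusted p = 0.361). Zfp36, which destabilizes cytokine mRNA, was at 1.22 ± 0.32 and Klf6 at 0.72 ± 0.35.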
